A study of Mus musculus with 123 samples.

Results

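The 10 genes described here are known as targets of the MAPK/ERK pathway. They were followed in mouse embryos with or without the transcription factors Oct4 (gene Pou5f1) or Sox2. ERK activity was not measured, and the levels of these genes are not read as a measure of it. The 10 genes are the rows of the deposited table of unique molecular identifier (UMI) counts whose gene name is Dusp4, Dusp6, Spry2, Spry4, Spred1, Etv4, Etv5, Egr1, Fos or Ier3, 10 of 29022 genes. The rule is a list of names and uses no measured value, but the list was chosen with earlier results of these data known. The study itself reported Etv5 as lowered in the ICMs of both KOs. The study sequenced the 3' ends of RNA from single embryos, 68 of an Oct4 line and 55 of a Sox2 line, strain label B6C3F1, to ask what each factor does as the inner cell mass (ICM) forms. Ctrl embryos lacked the maternal copy of the gene (floxed alleles removed by Zp3-Cre, a Cre driven in oocytes) and carried an intact paternal allele, KO embryos lacked both maternal and zygotic product and were picked by the fluorescence of a paternal knock-in reporter (mKO2 in the Oct4 line, EGFP in the Sox2 line), and MWT embryos had mothers with the gene intact. Each Ctrl and KO group held 8 embryos at each of 3 stages: the whole morula at E2.75, the early ICM at E3.75 and the late ICM at E4.5. MWT embryos numbered 7 at the morula, 5 at the early and 8 at the late ICM in the Oct4 line, and 7 at the early ICM in the Sox2 line.

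Every Ctrl and KO ICM came from an embryo grown from E2.5 in KSOM medium with 1 µM PD0325901, an inhibitor of MEK, the kinase that activates ERK, and was isolated by immunosurgery, which lyses the outer trophectoderm cells. Morulae carried no inhibitor treatment in their labels. No untreated Ctrl or KO ICM was analysed here, so stage, culture, inhibitor and immunosurgery cannot be told apart in any comparison of an ICM with a morula, and every KO effect in the ICM was measured under the inhibitor.

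In mm10 coordinates, the phosphatase genes are Dusp4 (chr8:34807297-34819894, plus strand) and Dusp6 (chr10:99263231-99267489, plus). The inhibitors are Spry2 (chr14:105891947-105896819, minus), Spry4 (chr18:38586247-38601415, minus) and Spred1 (chr2:117121374-117182279, plus). The ETS family transcription factors are Etv4 (chr11:101769742-101785371, minus) and Etv5 (chr16:22381309-22439719, minus). The immediate early genes are Egr1 (chr18:34859823-34864984, plus), Fos (chr12:85473890-85477273, plus) and Ier3 (chr17:35821684-35822923, plus). Spry4 overlaps 2 short non-coding gene models on the opposite strand, Gm27369 and Gm27804, and whether reads were counted by strand is not given in the sources used here.

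In the ERK pathway, a receptor tyrosine kinase such as an FGF receptor activates Ras, and the signal passes through Raf and MEK to ERK, which switches on transcription factors and their targets. Among the targets, immediate early genes such as Fos and Egr1 are transcribed within minutes, while phosphatases of the Dusp family and inhibitors of the Sprouty and Spred families feed back to dampen the pathway. In the blastocyst, FGF4 from epiblast cells acts through ERK on neighbouring ICM cells and directs them to primitive endoderm, which is why an inhibitor of MEK is used to hold the ICM in the epiblast state.

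The promoters of Fos, Dusp6 and Spry2 are shown because these 3 genes rose from morula to early ICM in both lines and because their RefSeq start site is also the first base of the gene in the files' annotation. Each sequence holds the 250 bases before the start (RefSeq, GRCm38.p6), at chr12:85473640-85473889 on the plus strand for Fos, chr10:99262981-99263230 on the plus strand for Dusp6 and chr14:105896820-105897069 on the minus strand for Spry2, read 5′ to 3′. Capitals mark matches to motifs searched on both strands.
Fos: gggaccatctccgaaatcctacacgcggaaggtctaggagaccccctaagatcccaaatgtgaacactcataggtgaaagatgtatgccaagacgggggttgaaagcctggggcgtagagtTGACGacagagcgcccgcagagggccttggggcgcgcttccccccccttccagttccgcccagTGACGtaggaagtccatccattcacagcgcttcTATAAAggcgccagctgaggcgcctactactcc
Dusp6: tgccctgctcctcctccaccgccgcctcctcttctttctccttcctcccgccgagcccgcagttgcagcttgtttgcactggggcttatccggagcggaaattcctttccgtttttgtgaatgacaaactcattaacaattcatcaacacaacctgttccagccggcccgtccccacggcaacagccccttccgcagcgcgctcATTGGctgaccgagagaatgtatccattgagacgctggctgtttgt
Spry2: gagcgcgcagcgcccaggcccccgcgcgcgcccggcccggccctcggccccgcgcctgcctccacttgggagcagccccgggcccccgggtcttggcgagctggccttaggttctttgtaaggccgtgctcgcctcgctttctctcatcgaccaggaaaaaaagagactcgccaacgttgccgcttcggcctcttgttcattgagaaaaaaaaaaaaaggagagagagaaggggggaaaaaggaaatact
The Fos window held TGACG, the first letters of the cyclic AMP response element TGACGTCA, at bases -129 to -125 and -66 to -62, and TATAAA at -33 to -28, counted from the start. The Dusp6 window held CCAAT at -46 to -42, read on the other strand as ATTGG, and the Spry2 window held no match. Among 32851 mouse promoters of this length, 17.8% held TGACG (which also counts every TGACGTCA), 12.4% TATAAA and 33.8% CCAAT, the last motif having been added once the sequences were read. The serum response factor's CArG box (1.47% of promoters), TGACGTCA (1.55%), the ETS core CCGGAA (12%), the AP-1 site TGANTCA (6.75%), the octamer ATGCAAAT (1.60%) and the Egr site GCGGGGGCG (2.57%) had no match in these 3 windows, which says only that these letters are not in these bases. Of the 10 genes, 6 had an entry in the promoter table used.

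The total count per embryo was 525755 to 1344035 UMIs. Values below are CPM, the counts of a gene per 1000000 UMIs of that embryo, and since a 3' end is counted once per molecule they are not divided by gene length. In the label check, Pou5f1 was at most 4.73 CPM in every Oct4 KO embryo and at least 13.4 CPM in every Oct4 Ctrl embryo. In the Sox2 line, Sox2 did not overlap between KO and Ctrl ICMs, while at the morula, where the groups overlapped, it averaged 1.57 CPM in KO embryos and 13.8 CPM in Ctrl embryos (n = 8 each). Of 10 epiblast markers, Nanog and Esrrb among them, 9 rose from morula to early ICM in Oct4 Ctrl embryos and 4 in Sox2 Ctrl embryos. No pair of embryos within a group agreed within sampling noise (lowest chi-square per gene 2.41 over 416 pairs). The labels do not say whether embryos came from separate litters or cultures, so p-values measure only the spread between these embryos.

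Tests were made by edgeR's quasi-likelihood method on 14053 genes detected in enough embryos, and a call needed both an adjusted p (Benjamini-Hochberg) under 0.05 and a log2 fold change of at least 1. Fold changes are given on the log2 scale with their standard error (SE) and CPM as mean ± SD. Where groups are said not to overlap, the share of all genes without overlap was not counted. Of the 10 genes, 9 were tested. Etv4 was too sparse: its highest group mean was 1.63 ± 0.999 CPM (n = 7), in Sox2 MWT early ICMs, and it had 0 UMIs in 4 of the 16 groups. In whole embryos or ICMs, fewer cells of a type and less RNA per cell cannot be told apart.

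From morula to early ICM, Egr1, Fos, Spry2, Etv5 and Dusp6 rose in Ctrl embryos of both lines and Dusp4 fell. The ICMs had been kept under MEK inhibitor, whose part cannot be told apart from that of stage, culture and immunosurgery. In the Oct4 line 5 of 9 genes were called higher, where 14.1% of all genes were, and 2 were called lower, where 14.9% of all genes were. In the Sox2 line 5 were called higher (17.2% of all genes) and 1 lower (14.7%). The median log2 fold change over the 9 genes was 1.92 in the Oct4 line and 2.51 in the Sox2 line, against -0.000266 and 0.0264 over all genes.

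**Figure D1:**
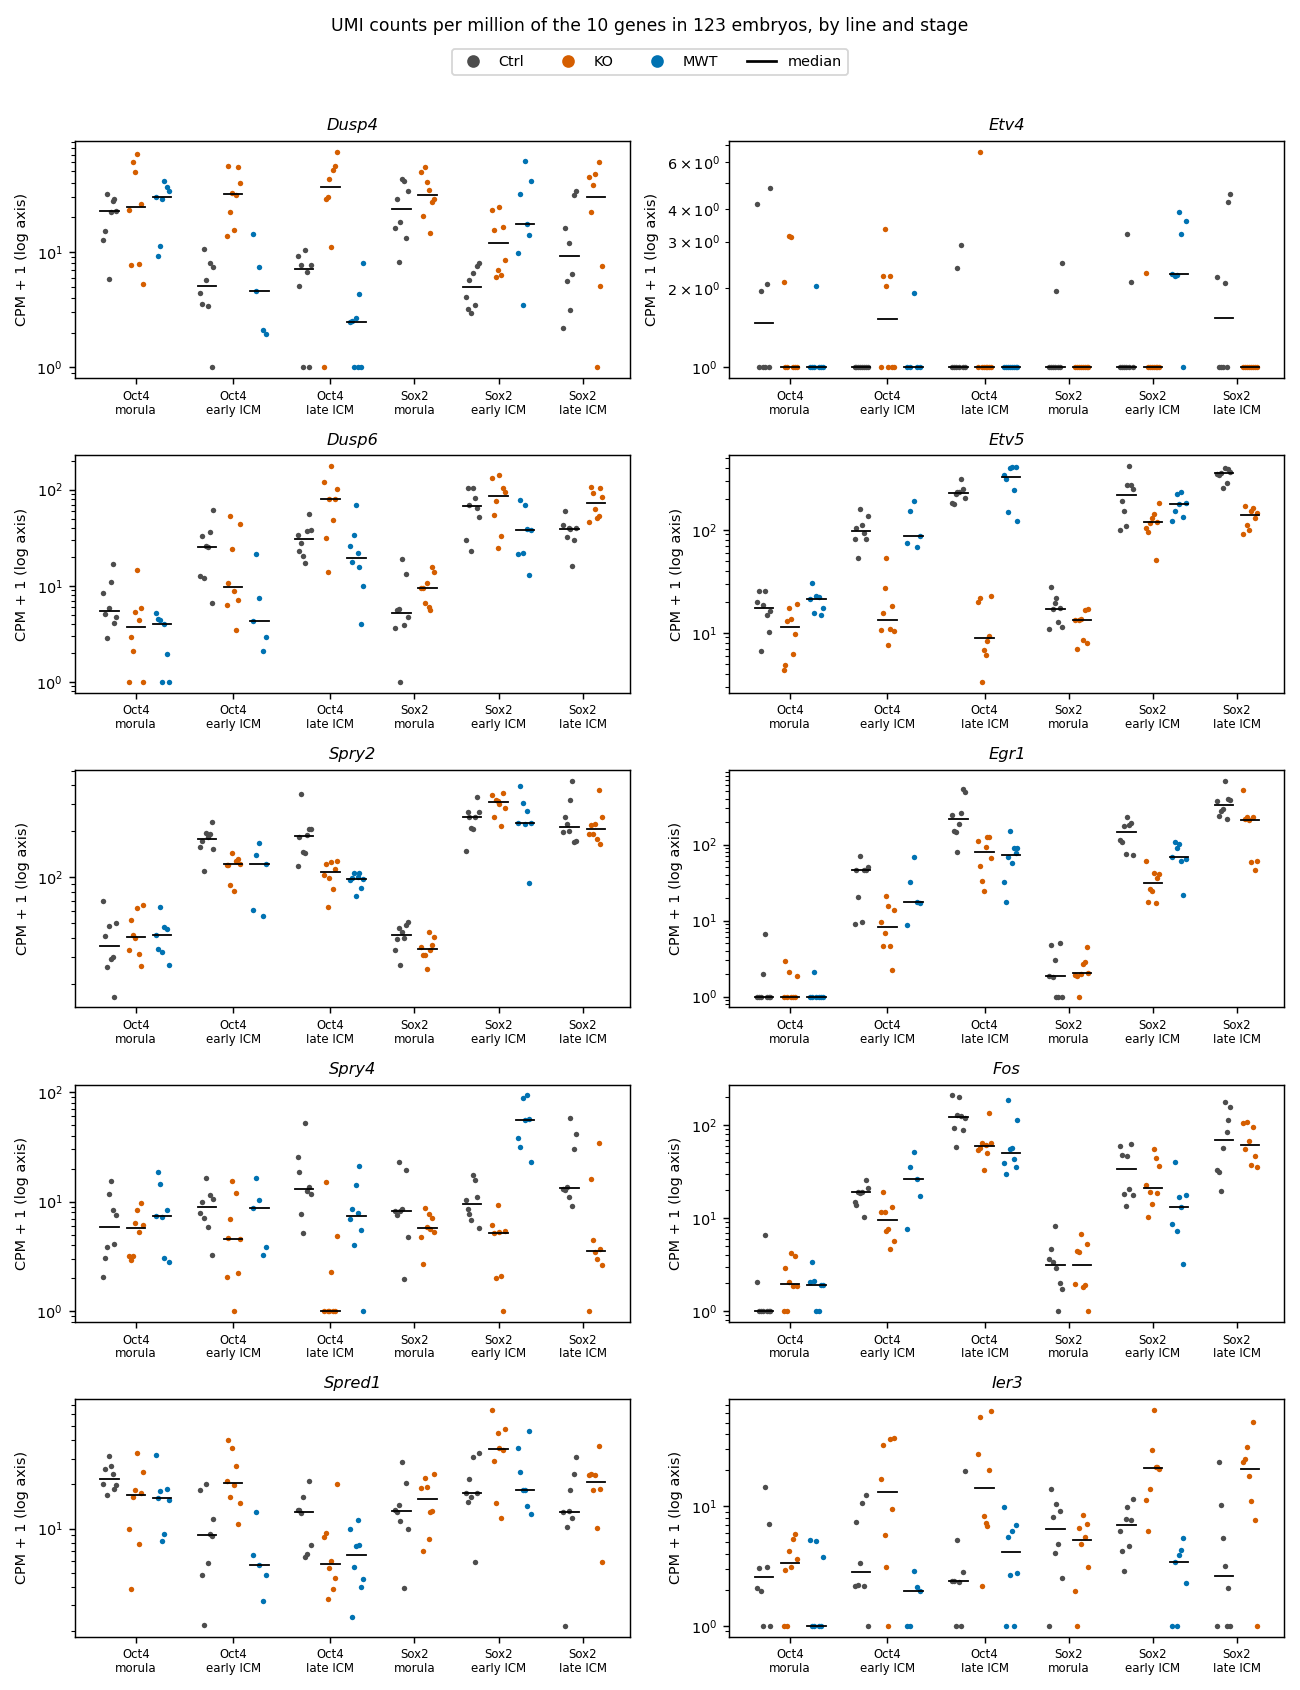
Level of each of the 10 genes in every embryo, by line, stage and genotype. The vertical axis is CPM + 1 on a log scale, each point is 1 embryo, horizontal lines are group medians, and Ctrl is grey, KO orange and MWT blue. Egr1 and Fos sit near 0 in morulae and climb through the ICM stages, Dusp4 sits lower in Ctrl early ICMs than in Ctrl morulae, and Etv5 in Oct4 KO ICMs stays at 2.33 to 52.0 CPM.

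Egr1 and Fos encode transcription factors that are made within minutes of ERK activation, and both were nearly silent in morulae. In Oct4 Ctrl embryos Egr1 was at 0 in 6 of 8 morulae, with 6 UMIs in all, and at 8.05 to 70.0 CPM (median 45.5) in early ICMs, with 250 UMIs in all. Relative to depth this was 48.1 times higher (95% interval 21.8 to 132, counting error only). Ctrl morula 15 held 5 of the 6 UMIs, and without it the ratio was 256 (45.5 to 10153) and the log2 fold change 6.94. No early ICM was as low as any morula, and edgeR gave a log2 fold change of 5.24 ± 0.69 (SE, adjusted p = 3.76e-10).

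Egr1 in the Sox2 line rose from 12 UMIs over 8 Ctrl morulae to 1054 UMIs over 8 early ICMs, at 72 to 231 CPM (median 143). The groups did not overlap, and the log2 fold change was 6.5 ± 0.54 (adjusted p = 1.24e-18). Fos rose likewise, from 6 UMIs in all in Oct4 Ctrl morulae to 9.36 to 24.9 CPM (median 18) in early ICMs, a log2 fold change of 4.14 ± 0.66 (adjusted p = 9.95e-08). Ctrl morula 15 held 5 of those 6 UMIs as well, and without it the value was 5.84. For Fos in the Sox2 line the early ICMs reached 12.6 to 61.9 CPM (median 32.5), with a log2 fold change of 3.72 ± 0.48 (adjusted p = 1.32e-10). Every early ICM of each line lay above every morula of that line for Fos. Ier3, which encodes a regulator of cell survival induced by ERK and other pathways, did not follow: its log2 fold changes were 0.30 ± 0.81 and -0.03 ± 0.69, neither passing the test.

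Spry2, an inhibitor of receptor tyrosine kinase signalling, lay at 15.5 to 68.9 CPM (median 34.3) in Oct4 Ctrl morulae and at 109 to 229 CPM (median 177) in early ICMs. The ranges did not overlap, and the log2 fold change was 2.08 ± 0.20 (adjusted p = 2.02e-15). Sox2 Ctrl embryos held Spry2 at 25.5 to 49.8 CPM in morulae and at 147 to 332 CPM in early ICMs, again without overlap (log2 fold change 2.51 ± 0.20, adjusted p = 6.53e-20). Its relative Spry4 passed the test in neither line (0.32 ± 0.56 and -0.05 ± 0.51). Spred1, which inhibits the activation of Raf, differed in outcome between the lines: it fell in the Oct4 line from 16.0 to 30.1 CPM to 1.22 to 19 CPM (log2 fold change -1.34 ± 0.38, adjusted p = 0.00194), while in the Sox2 line the log2 fold change was 0.44 ± 0.35 (adjusted p = 0.308), and the difference between the lines was not tested.

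Etv5, an ETS transcription factor that FGF signalling induces, lay at 5.66 to 24.6 CPM (median 16.3) in Oct4 Ctrl morulae and at 52.2 to 158 CPM (median 97.2) in early ICMs. Sox2 Ctrl embryos held it at 9.80 to 26.9 CPM (median 16.1) in morulae and at 97.6 to 412 CPM (median 218) in early ICMs. Neither line's groups overlapped, and the log2 fold changes were 2.53 ± 0.28 (adjusted p = 5.17e-13) and 3.67 ± 0.27 (adjusted p = 2.12e-21).

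The phosphatase genes went opposite ways. Dusp6, which removes phosphate from ERK in the cytoplasm, rose from 1.89 to 16.0 CPM (median 4.47) in Oct4 Ctrl morulae to 5.67 to 60.8 CPM (median 24.6) in early ICMs, and from at most 18 CPM to 22.3 to 104 CPM in the Sox2 line. The log2 fold changes were 1.92 ± 0.49 (adjusted p = 0.000722) and 3.33 ± 0.45 (adjusted p = 7.73e-10), and the ranges overlapped in the Oct4 line alone. Dusp4, the related phosphatase of the nucleus, fell from 4.85 to 31.1 CPM (median 21.5) to 0 to 9.72 CPM (median 4.10) in the Oct4 line and from 7.13 to 41.8 CPM to 1.94 to 7.08 CPM in the Sox2 line. Its log2 fold changes were -2.19 ± 0.59 (adjusted p = 0.00122) and -2.57 ± 0.57 (adjusted p = 8.66e-05).

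Over the same step the markers of other cell types moved too. Of 15 tested primitive endoderm markers 8 were called higher and 3 lower in the Oct4 line and 9 and 3 in the Sox2 line, with summed levels of 802 to 1210 CPM in morulae and 911 to 1409 CPM in early ICMs of the Oct4 line and 945 to 1358 CPM and 426 to 1290 CPM in the Sox2 line. Of 16 trophectoderm markers 4 were called higher and 2 lower, then 2 and 8 (643 to 1557 CPM against 531 to 2462 CPM, and 785 to 1335 CPM against 262 to 737 CPM), and of 10 stress genes 4 and 3, then 1 and 3. Their part in the stage differences was not tested.

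**Figure D2:**
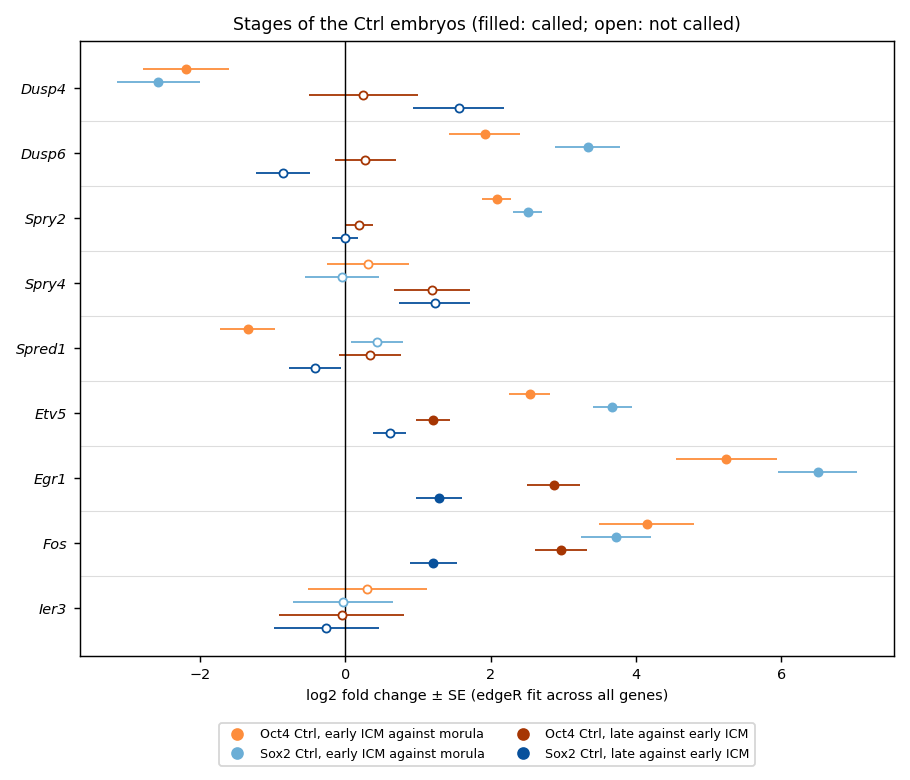
Stage differences in Ctrl embryos of both lines for the 9 tested genes. The horizontal axis is the log2 fold change with its SE, for early ICM against morula and late ICM against early ICM, and filled points are called changes. From morula to early ICM Egr1 stands at 5.24 and 6.5 and Dusp4 at -2.19 and -2.57, and from early to late ICM the called changes are Egr1 and Fos in both lines and Etv5 in the Oct4 line.

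From early to late ICM the immediate early genes Egr1 and Fos were called higher in Ctrl embryos of both lines. In Oct4 Ctrl embryos Egr1 reached 78.0 to 531 CPM (median 216), a log2 fold change of 2.86 ± 0.36 over the early ICM (adjusted p = 2.26e-10), and Fos reached 56.8 to 208 CPM (median 122), a log2 fold change of 2.97 ± 0.35 (adjusted p = 4.59e-11). Etv5 rose to 178 to 306 CPM (median 225), a log2 fold change of 1.21 ± 0.23 (adjusted p = 2.09e-05). None of these 3 genes overlapped between the stages. They made 3 of 9 genes called higher, against 9.52% of all genes, while 0 were called lower against 6.04%. The median over the 9 genes was 0.34, against 0.0276 over all genes.

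In Sox2 Ctrl embryos 2 of 9 genes were called higher from early to late ICM, against 1.94% of all genes, and 0 lower, against 0.961%. These were Egr1, which reached 213 to 688 CPM (log2 fold change 1.29 ± 0.32, adjusted p = 0.00532), and Fos, which reached 18.5 to 177 CPM (1.21 ± 0.33, adjusted p = 0.0107). The Fos call was lost without Ctrl embryo 2-1 (0.96, adjusted p = 0.066) or 2-6 (1.03, adjusted p = 0.053) and with limma on the deposited log values. Of the 8 late ICMs, 5 lay above the early ICM median for Fos. Those whose label begins with 1 lay at 18.5 to 55.4 CPM, within the early ICM range of 12.6 to 61.9 CPM. Those whose label begins with 2 lay at 82.7 to 177 CPM, so the pooled rise in Fos came from them. Spry4 stood at 1.20 ± 0.52 (adjusted p = 0.069) in the Oct4 line and 1.23 ± 0.49 (adjusted p = 0.112) in the Sox2 line, and passed in neither, although in the Oct4 line it passed without Ctrl early ICM embryo 4 (1.37) or late ICM embryo 1-6 (1.32). Markers of other cell types were called higher over this step as well: 6 of 15 primitive endoderm, 3 of 16 trophectoderm and 2 of 10 stress genes in the Oct4 line, where 2, 1 and 0 were called lower, and 5, 7 and 4 in the Sox2 line, where none was called lower. In the late ICMs of the Oct4 and Sox2 lines the summed primitive endoderm markers were 409 to 2447 CPM and 608 to 3244 CPM and the summed trophectoderm markers 511 to 2226 CPM and 342 to 4036 CPM, and their part in the rise of Egr1 and Fos was not tested. Late ICM Ctrl embryos are shared by these comparisons and by the KO comparisons that follow, as are those of the early ICM.

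In morulae neither KO changed any of these genes by the test. By edgeR 0 of 9 genes were called in Oct4 KO morulae, with 0 at an unadjusted p under 0.05, and DESeq2 and limma also called 0, against 0.804% of all genes called by edgeR. In Sox2 KO morulae the counts were the same, 0 by each tool and 0 at an unadjusted p under 0.05, against 0.00712% of all genes. Dusp4 in Oct4 KO morulae spread widely, from 4.32 to 69.7 CPM (log2 fold change 0.64 ± 0.46, adjusted p = 0.654), and Etv5 lay at 3.32 to 18.1 CPM (-0.62 ± 0.34, adjusted p = 0.488).

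In Oct4 KO ICMs the 10 genes split. Etv5 and Egr1 fell at both ICM stages, Dusp4 and Ier3 rose at both, Spred1 rose in the early ICM, and in the late ICM Dusp6 rose and Spry4 fell. In the early ICM 3 of 9 genes were called higher (4.77% of all genes) and 2 lower (6.11%), with a median of -0.50 against 0.0144 over all genes. In the late ICM 3 were called higher (9.25%) and 3 lower (8.85%), with a median of -0.78 against -0.0056.

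**Figure D3:**
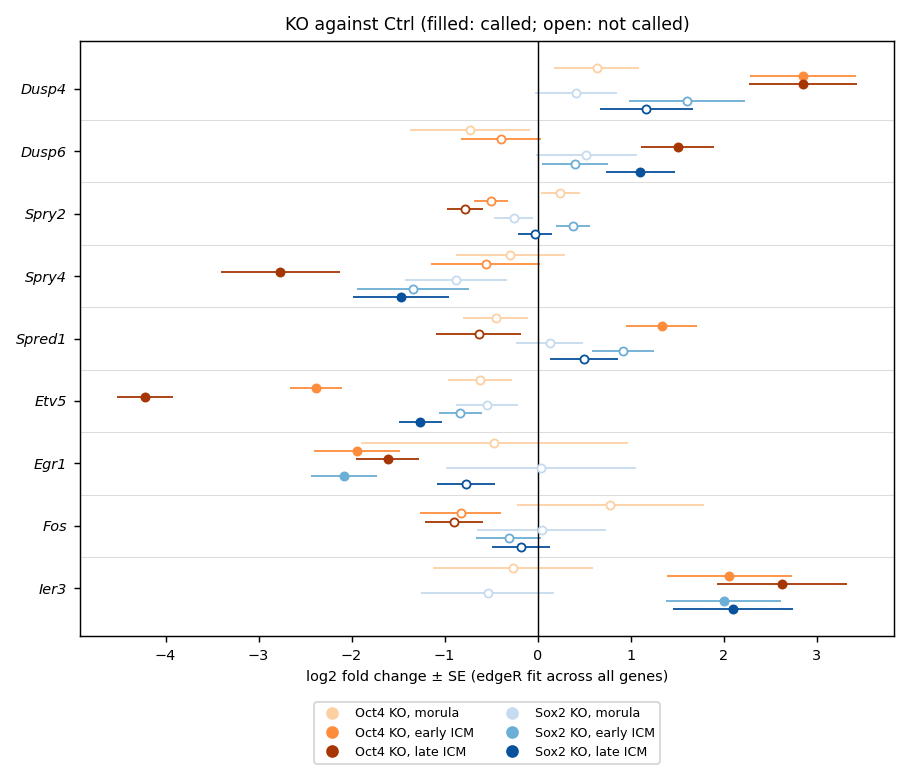
KO against Ctrl for the 9 tested genes in both lines and 3 stages. The horizontal axis is the log2 fold change with its SE, and filled points are called changes. No gene is called in morulae, Etv5 reaches -4.22 in Oct4 KO late ICMs against -1.26 in Sox2 KO late ICMs, and Ier3 lies between 2.00 and 2.62 in the 4 ICM comparisons.

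Etv5 had the largest KO effect of the 9 genes in Oct4 late ICMs. In the early ICM it lay at 6.67 to 52.0 CPM (median 12.2) in KO embryos against 52.2 to 158 CPM (median 97.2) in Ctrl, a log2 fold change of -2.39 ± 0.28 (adjusted p = 4.17e-11). In the late ICM it lay at 2.33 to 21.8 CPM (median 7.80) against 178 to 306 CPM (median 225), a log2 fold change of -4.22 ± 0.30 (adjusted p = 1.45e-21). Not one KO embryo reached the lowest Ctrl embryo at either stage. The morulae of the same genotype had held 3.32 to 18.1 CPM.

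In Sox2 KO embryos Etv5 moved less. In the early ICM it lay at 49.4 to 179 CPM (median 117) against 97.6 to 412 CPM (median 218) in Ctrl, and its log2 fold change of -0.83 ± 0.23 (adjusted p = 0.0128) was under the fold minimum. In the late ICM it fell to 90.5 to 167 CPM (median 136) against 254 to 396 CPM (median 352), without overlap, a log2 fold change of -1.26 ± 0.23 (adjusted p = 1.95e-05). The test of the difference between the KO effects gave -1.55 ± 0.36 (adjusted p = 0.0021) in the early ICM, where 5.52% of all genes were called, and -2.96 ± 0.38 (adjusted p = 8.35e-09) in the late ICM, where 6.30% were called. Etv5 was the 1 member called in each of these tests. Within the Oct4 line the Etv5 effect also differed between stages, by -1.77 ± 0.45 (adjusted p = 0.00947) from morula to early ICM and by a further -1.83 ± 0.43 (adjusted p = 0.00417) from early to late ICM.

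The other ETS gene, Etv4, had 0 UMIs over 8 Oct4 Ctrl early ICMs and 5 over 8 KO early ICMs, 2 and 4 UMIs in the late ICM groups, and 8 UMIs over Sox2 Ctrl late ICMs against 0 over Sox2 KO late ICMs. These counts are too few to compare.

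Egr1 fell in 3 of the 4 ICM comparisons. In Oct4 KO early ICMs it lay at 1.22 to 19.8 CPM (median 7.21) against 8.05 to 70.0 CPM in Ctrl, and in late ICMs at 23.2 to 125 CPM (median 78.2) against 78.0 to 531 CPM. At both stages each of the 8 KO embryos was under the median of Ctrl although the ranges overlapped, with log2 fold changes of -1.94 ± 0.46 (adjusted p = 0.000853) and -1.61 ± 0.34 (adjusted p = 6.36e-05). In Sox2 KO early ICMs Egr1 lay at 16.1 to 60.6 CPM (median 30.0) against 72 to 231 CPM, without overlap, a log2 fold change of -2.08 ± 0.36 (adjusted p = 1.66e-05). In Sox2 KO late ICMs it ranged from 45.8 to 517 CPM against 213 to 688 CPM in Ctrl and did not pass (-0.77 ± 0.31, adjusted p = 0.0922). Without the KO embryo at 517 CPM, labelled 1-1, it passed at -1.16 (adjusted p = 0.00668).

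Fos did not pass the fold minimum in any KO comparison. In Oct4 KO late ICMs it lay at 31.9 to 134 CPM (median 58.3) against 56.8 to 208 CPM (median 122), with a log2 fold change of -0.90 ± 0.31 (adjusted p = 0.02) that passed without Ctrl embryo 1-4 (-1.03) or KO embryo 2-6 (-1.16). In the early ICM the log2 fold change was -0.83 ± 0.44 (adjusted p = 0.178) in the Oct4 line and -0.31 ± 0.35 (adjusted p = 0.686) in the Sox2 line. In Sox2 KO late ICMs the pooled value of -0.18 ± 0.31 (adjusted p = 0.784) held opposite values in the label sets described further on.

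Ier3 rose in all 4 ICM comparisons, from low Ctrl levels and with wide spread. In Oct4 KO early ICMs it lay at 0 to 36.3 CPM (median 12.3) against 0 to 11.3 CPM (median 1.79), and in late ICMs at 1.16 to 61.7 CPM (median 13.2) against 0 to 18.7 CPM (median 1.37). In Sox2 KO early ICMs it lay at 5.20 to 63.1 CPM (median 19.95) against 1.90 to 10.6 CPM (median 5.91), and in late ICMs at 0 to 50.2 CPM (median 19.7) against 0 to 22.4 CPM (median 1.62). The groups overlapped each time. The log2 fold changes were 2.06 ± 0.67 (adjusted p = 0.0192), 2.62 ± 0.70 (adjusted p = 0.00192), 2.00 ± 0.62 (adjusted p = 0.0304) and 2.10 ± 0.65 (adjusted p = 0.0178). Single embryos carried 3 of these calls: the call was lost in the Oct4 early ICM without KO embryo 14 (1.78, adjusted p = 0.0614) or 18 (1.77, adjusted p = 0.0611), in the Sox2 early ICM without KO embryo 10 (1.58, adjusted p = 0.132), Ctrl embryo 5 (1.87, adjusted p = 0.0615) or Ctrl embryo 10 (1.94, adjusted p = 0.0553), and in the Sox2 late ICM without KO embryo 2-6 (1.75, adjusted p = 0.0659). In late ICMs the value was 3.85 without Oct4 Ctrl embryo 2-9 and 3.06 without Sox2 Ctrl embryo 1-4. DESeq2 did not call Ier3 in the Sox2 early ICM (2.04, adjusted p = 0.0596).

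Dusp4 rose in Oct4 KO ICMs at both stages. In early ICMs it lay at 12.8 to 54.6 CPM (median 30.9) in KO embryos, all above the Ctrl range of 0 to 9.72 CPM, a log2 fold change of 2.85 ± 0.57 (adjusted p = 6.55e-05). In late ICMs it lay at 0 to 73.3 CPM (median 35.6) against 0 to 9.37 CPM (median 6.19), a log2 fold change of 2.85 ± 0.58 (adjusted p = 4.78e-05). The 1 late KO embryo at 0 UMIs was the only one of 16 Oct4 KO ICMs below the Ctrl median. For the Sox2 KO the log2 fold changes were 1.60 ± 0.62 (adjusted p = 0.107) in the early ICM and 1.17 ± 0.50 (adjusted p = 0.106) in the late ICM. Neither passed, and the late value passed without Ctrl embryo 2-6 (1.51, adjusted p = 0.0459) or KO embryo 2-3 (1.38, adjusted p = 0.0455). The differences between the lines' effects, 1.25 ± 0.90 (adjusted p = 0.441) and 1.68 ± 0.79 (adjusted p = 0.19), did not pass either.

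Dusp6 rose in the late ICM of both KOs. It lay at 12.8 to 174 CPM (median 79.2) in Oct4 KO late ICMs against 16.1 to 54.5 CPM (median 29.9) in Ctrl, and at 44.7 to 105 CPM (median 72.4) in Sox2 KO late ICMs against 14.9 to 58.9 CPM (median 38.3). The log2 fold changes were 1.5 ± 0.39 (adjusted p = 0.00143) and 1.10 ± 0.37 (adjusted p = 0.0337). The Sox2 call was lost with 7 of the 16 embryos left out in turn, at values down to 0.995. It was also lost with DESeq2 (1.11, adjusted p = 0.0684) and with library totals (1.01, adjusted p = 0.0584). With limma on the deposited log values it was at 0.996, under the fold minimum. In the early ICM the values were -0.39 ± 0.43 (adjusted p = 0.571) and 0.40 ± 0.35 (adjusted p = 0.581), and the effect in the Oct4 line differed between late and early ICM by 1.90 ± 0.58 (adjusted p = 0.0397). By DESeq2 that difference was 1.87 and missed the threshold (adjusted p = 0.0539).

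Of the inhibitors, Spry4 fell in the late ICM of both KOs. In Oct4 KO late ICMs 5 of 8 embryos had no Spry4 UMI and the highest had 14 CPM, against 4.18 to 50.9 CPM (median 12.1) in Ctrl, a log2 fold change of -2.76 ± 0.64 (adjusted p = 0.000335). In counts this was 14 UMIs against 97, a ratio for depth of 0.129 (95% interval 0.0677 to 0.226, counting error only). KO embryo 1-5 held 10 of the 14 UMIs, and without it the ratio was 0.0417 (0.0111 to 0.110) and the log2 fold change -4.28. In Sox2 KO late ICMs it lay at 0 to 33.1 CPM (median 2.57) against 8.13 to 57.4 CPM (median 12.3), with a log2 fold change of -1.47 ± 0.51 (adjusted p = 0.0407). That call was lost without any 1 of 9 of the 16 embryos, among them Ctrl embryo 2-1 (-1.11, adjusted p = 0.169), while without KO embryo 2-6 the value was -2.40 (adjusted p = 0.00112). In early ICMs the values were -0.56 ± 0.58 (adjusted p = 0.548) in the Oct4 line and -1.34 ± 0.60 (adjusted p = 0.18) in the Sox2 line.

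Spry2 lay below the Ctrl median in all 8 Oct4 KO embryos of each ICM stage, but its effect was under the fold minimum. It lay at 80.0 to 143 CPM (median 120) against 109 to 229 CPM (median 177) in early ICMs and at 62.9 to 126 CPM (median 107) against 117 to 347 CPM (median 185) in late ICMs. The log2 fold changes were -0.50 ± 0.19 (adjusted p = 0.0421) and -0.78 ± 0.19 (adjusted p = 0.000665). For the Sox2 KO they were 0.38 ± 0.18 (adjusted p = 0.212) and -0.03 ± 0.18 (adjusted p = 0.952). The lines' early ICM effects differed by -0.88 ± 0.26 (adjusted p = 0.0186), below the fold minimum.

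Spred1 rose in Oct4 KO early ICMs, to 9.79 to 38.8 CPM (median 19.6) against 1.22 to 19 CPM (median 8.06), a log2 fold change of 1.33 ± 0.38 (adjusted p = 0.00618). All 8 KO embryos lay above the Ctrl median. In the late ICM the log2 fold change was -0.63 ± 0.45 (adjusted p = 0.303), and the effect differed between late and early ICM by -1.97 ± 0.59 (adjusted p = 0.036) and between early ICM and morula by 1.78 ± 0.51 (adjusted p = 0.0247). Etv5 and Spred1 were the 2 members called between morula and early ICM in the Oct4 line, where 3.29% of all genes were, and Dusp6, Spred1 and Etv5 the 3 called between early and late ICM, where 3.11% were. Sox2 KO early ICMs had Spred1 at 0.91 ± 0.33 (adjusted p = 0.0813), which passed without Ctrl embryo 15 (1.08), KO embryo 5 (1.05) or KO embryo 11 (1.06).

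For the Sox2 KO 1 of 9 genes was called higher (1.57% of all genes) and 1 lower (1.69%) in KO early ICMs, and 2 higher (3.34%) and 2 lower (3.61%) in KO late ICMs. The medians over the 9 genes were 0.38 and -0.03, against -0.0107 and 0.00125 over all genes. Between stages 0 of 9 genes had a KO effect that differed by edgeR: from morula to early ICM 2 had an unadjusted p under 0.05 and DESeq2 called 0, against 0.882% of all genes called by edgeR, and from early to late ICM 1 had an unadjusted p under 0.05 and DESeq2 called 0, against 0.0427%.

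Some markers of the trophectoderm, the outer layer that immunosurgery removes, were called higher in each KO ICM group, most of them in Oct4 KO late ICMs. The summed level of 16 such genes was 531 to 2462 CPM in Oct4 Ctrl early ICMs and 2422 to 5999 CPM in KO, and 511 to 2226 CPM against 4202 to 7594 CPM in late ICMs. In the Sox2 line it was 262 to 737 CPM in Ctrl and 629 to 2595 CPM in KO early ICMs, and 342 to 4036 CPM against 779 to 2322 CPM in late ICMs. Of the 16 genes, 4 were called higher and 2 lower in the early ICM and 13 and 0 in the late ICM of the Oct4 KO, 5 and 1 and then 4 and 1 in those of the Sox2 KO, and none of them was at 0 in any ICM group. Their median log2 fold changes were 0.30 and 1.97 in the Oct4 line and 1.47 and -0.01 in the Sox2 line, where the late Ctrl embryos reached above the KO range. Of 10 epiblast markers, 7, 9, 4 and 4 were called lower in the same order and 0 higher. These counts include the deleted gene itself. Pou5f1 was called lower at both ICM stages of the Oct4 KO (-6.07 and -7.12) and Sox2 at both of the Sox2 KO (-2.12 and -3.35). Of 15 tested primitive endoderm markers, 3 were called higher and 3 lower, 3 and 8, 2 and 0, and 0 and 3 in that order, and of these markers Foxa2 was at 0 in the Ctrl and KO early ICMs of both lines. Of 10 stress genes, 2 were higher and 1 lower, 0 and 2, 1 and 1, and 1 and 3. The part of these cell types in the rise of Dusp4, Ier3, Dusp6 and Spred1 and in the fall of Etv5, Egr1 and Spry4 was not tested.

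Fgf4, the gene of the ligand made by epiblast cells, fell in all 4 ICM comparisons. It averaged 112 CPM in Oct4 Ctrl early ICMs and 24.4 CPM in KO, and 321 CPM against 14.7 CPM in late ICMs. Means in the Sox2 line were 196 and 31.1 CPM in early ICMs and 397 and 32.4 CPM in late ICMs. The log2 fold changes were -2.10 ± 0.37, -4.35 ± 0.41, -2.58 ± 0.36 and -3.50 ± 0.36 (adjusted p at most 6.38e-06). Its receptor gene Fgfr2 rose in Oct4 KO late ICMs (1.34 ± 0.25) and Sox2 KO early ICMs (1.37 ± 0.24) and stood at 0.48 ± 0.24 and 0.62 ± 0.25 in the others. Of the 5 genes for FGF4 and its receptors, 0 were higher and 1 lower in Oct4 KO early ICMs, 2 and 1 in late ICMs, and 1 and 1, then 0 and 1, in the Sox2 line.

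Few of the 23 genes of the cascade from receptor adaptors through Ras, Raf and MEK to ERK and its kinase targets were called. In Oct4 KO early ICMs 1 was called lower, the ERK-activated kinase gene Rps6ka1 (-1.14), in Sox2 KO early ICMs 1 was called higher, the Ras activator gene Sos1 (1.23), and in late ICMs of both lines 0 were called by edgeR. These 2 genes are named after their values were seen. A further 38 ERK-responsive genes showed 2 called higher and 9 lower in Oct4 KO early ICMs (median -0.10), 8 and 8 in late ICMs (-0.44), and 1 and 1 (-0.07), then 3 and 7 (-0.19), in the Sox2 line. Of all genes, 4.77% were called higher and 6.11% lower in Oct4 KO early ICMs, and 9.25% and 8.85% in late ICMs. In the Sox2 line these shares were 1.57% and 1.69% in early ICMs, then 3.34% and 3.61% in late ICMs.

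Among these, Junb, a partner of Fos in the AP-1 dimer, fell in all 4 comparisons, by 2.08, 1.65, 1.92 and 2.28 on the log2 scale in the order used above. The phosphatase gene Dusp1 fell in 3 of them (-1.69, -2.36 and, in the Sox2 late ICM, -1.27) and stood at 0.13 in the Sox2 early ICM. The ephrin receptor gene Epha4 fell in the same 3 (-2.26, -3.70 and -1.09) and stood at -0.29 in the Sox2 early ICM. Epha2 fell in the Oct4 line (-2.08 and -3.24) and stood at 0.98 (adjusted p = 0.192) and -1.04 (adjusted p = 0.125) in the Sox2 line. The lines' Epha2 effects differed in early ICMs (-3.06 ± 0.77, adjusted p = 0.00542), and in late ICMs the difference did not pass (-2.20 ± 0.85, adjusted p = 0.0929). Atf3, a stress-induced transcription factor, had 0 UMIs over 8 Oct4 KO early ICMs against 19 over 8 Ctrl, and 6 against 74 in late ICMs, both called. In the Sox2 line it stood at -0.42 (adjusted p = 0.811) and -1.61 (adjusted p = 0.0592), and the difference between the lines passed at neither stage (adjusted p = 0.0677 and 0.256). Bhlhe40, a transcriptional repressor, rose in Oct4 KO ICMs (2.26 and 2.62). In the Sox2 line it stood at 1.14 (adjusted p = 0.291) and -0.22 (adjusted p = 0.86). For Dusp1, Epha4 and Bhlhe40 the difference between the lines is not given here, and none is read from these values.

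Late ICM labels came in sets beginning with 1 or 2, whose meaning the labels do not give, and Fos in Sox2 Ctrl embryos differed between them. In Sox2 Ctrl late ICMs Fos lay at 18.5 to 55.4 CPM in the 4 embryos of set 1 and at 82.7 to 177 CPM in the 4 of set 2, without overlap (set 2 minus set 1, log2 fold change 1.91 ± 0.33, adjusted p = 0.00632, with 0.455% of all genes called). In KO embryos the order was not the same: 54.9 to 107 CPM in set 1 and 34.7 to 95.6 CPM in set 2. Within set 1 Fos was 1.33 higher in KO on the log2 scale (adjusted p = 0.012), and within set 2 it was at -1.16 (adjusted p = 0.0263), each called. The test of that difference gave -2.49 ± 0.46 and did not pass (adjusted p = 0.0551): by edgeR 0 genes of all tested passed, which is 0%, with 1085 genes at an unadjusted p under 0.05.

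**Figure D4:**
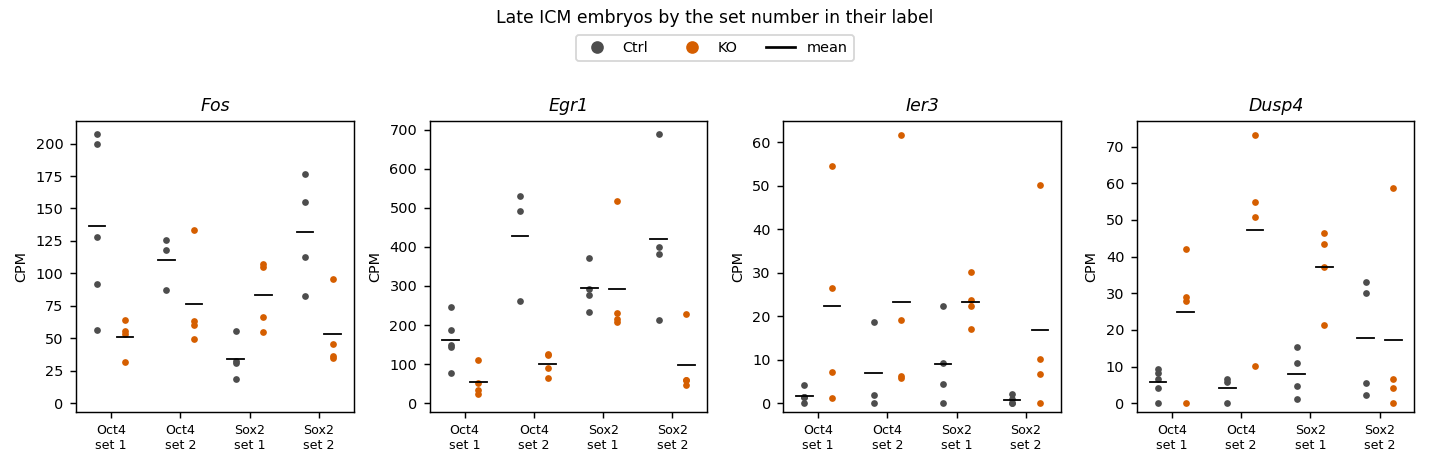
Level of Fos, Egr1, Ier3 and Dusp4 in late ICMs of both lines, split by genotype and by the first number of the late ICM label. The vertical axis is CPM, each point is 1 embryo, and horizontal lines are means. In Sox2 Ctrl embryos Fos lies at 18.5 to 55.4 CPM in set 1 and 82.7 to 177 CPM in set 2, and the KO embryos of both sets lie at 34.7 to 107 CPM.

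For Egr1 in the Sox2 line the KO value was called in set 2 (-1.95, adjusted p = 0.009), where KO embryos lay at 45.8 to 228 CPM against 213 to 688 CPM. In set 1 it stood at 0.06 (adjusted p = 0.941), with KO embryos at 207 to 517 CPM against 233 to 372 CPM, and the difference between the sets was -2.02 ± 0.55 (adjusted p = 0.333). Other values within sets kept the direction of the pooled ones where these were called. In the Sox2 line Dusp4 was called in set 1 (2.23, adjusted p = 0.00477), while Ier3 (1.41, adjusted p = 0.164) and Dusp6 (0.88, adjusted p = 0.0649) did not pass in set 1 and Spry4 passed in neither set (-1.10 and -1.60) nor with the set as a block (-1.40, adjusted p = 0.0743). In the Oct4 line Ier3 did not pass in set 2 (1.67, adjusted p = 0.139), Spry4 did not pass in set 1 (-2.49, adjusted p = 0.0617), and Fos was called in set 1 (-1.36, adjusted p = 0.00978). Between Oct4 Ctrl sets 0.121% of all genes were called and none of the 9, and between the sets' KO effects 0% of genes were called by edgeR (0 genes), with 731 at an unadjusted p under 0.05.

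MWT embryos were set against Ctrl embryos, which lack the maternal copy. Labels of 2 MWT groups conflict: the Oct4 MWT early ICMs are titled early ICM but carry the tissue of the morula and no inhibitor treatment, and the Oct4 MWT late ICMs are titled late ICM but carry the tissue of the early ICM. Titles were used here. The embryos titled Oct4 MWT early ICM held 139 to 297 CPM of Sox2, against at most 44.8 CPM in Oct4 Ctrl morulae. The study's methods describe culture with the inhibitor for early and late ICM samples in general, while the labels of these embryos give no treatment, so maternal genotype, stage and treatment cannot be told apart in that comparison. For the embryos titled Oct4 MWT late ICM the treatment label includes the inhibitor, and maternal genotype and stage cannot be told apart. These fits covered 13923 genes over all 16 groups.

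**Figure D5:**
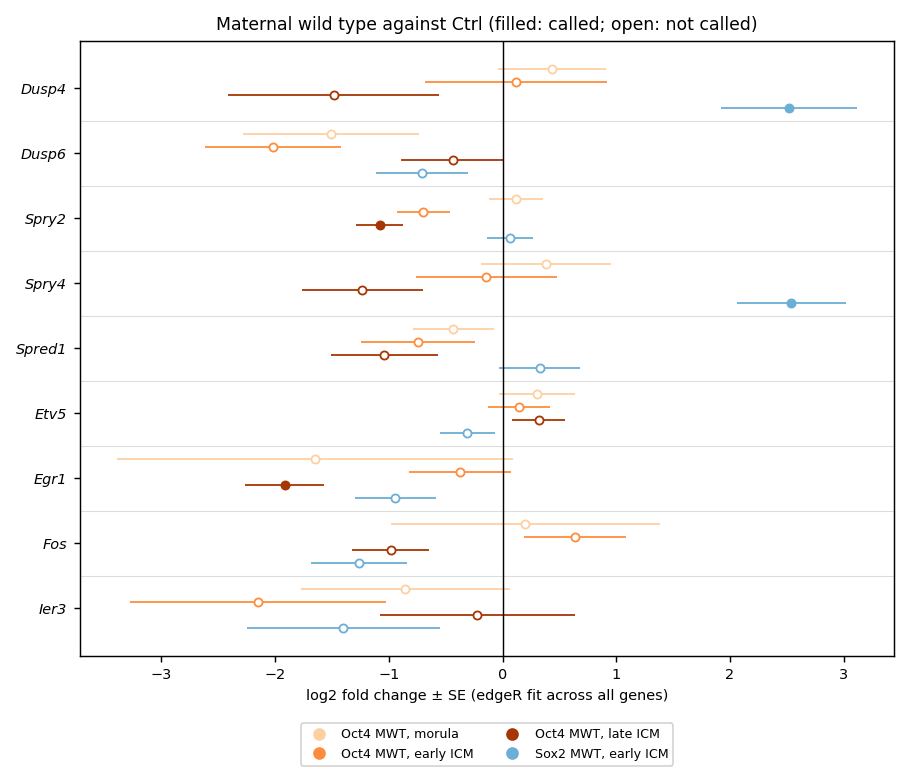
MWT against Ctrl for the 9 tested genes in 4 comparisons. The horizontal axis is the log2 fold change with its SE, and filled points are called changes: Spry2 (-1.08) and Egr1 (-1.92) in Oct4 late ICMs and Dusp4 (2.52) and Spry4 (2.54) in Sox2 early ICMs.

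In Oct4 MWT morulae 0 of 9 genes were called by edgeR, 0 at an unadjusted p under 0.05 and 0 by DESeq2, against 0.0646% of all genes. In the embryos titled Oct4 MWT early ICM 0 were called, 2 at an unadjusted p under 0.05 and 0 by DESeq2, against 0.373%. Dusp6 there was at 3.34, 20.2, 6.47, 1.11 and 1.90 CPM in the 5 embryos, against 5.67 to 60.8 CPM in Ctrl. Its log2 fold change of -2.02 ± 0.60 (adjusted p = 0.085) passed without the embryo at 20.2 CPM, replicate 3 (-2.94, adjusted p = 0.0398).

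In the embryos titled Oct4 MWT late ICM 2 of 9 genes were called, against 0.797% of all genes, both lower than in Ctrl. Spry2 lay at 74.6 to 105 CPM (median 96.8) against 117 to 347 CPM, without overlap, a log2 fold change of -1.08 ± 0.21 (adjusted p = 0.000723). Egr1 lay at 16.5 to 149 CPM (median 72.5) against 78.0 to 531 CPM, a log2 fold change of -1.92 ± 0.35 (adjusted p = 0.000329). The median over the 9 genes was -1.04, against 0.01 over all genes. The summed primitive endoderm markers were 242 to 670 CPM in these embryos and 409 to 2447 CPM in Ctrl, with 7 of the tested markers called lower, and their part in the result was not tested. The 8 Oct4 KO late ICMs held Spry2 at 62.9 to 126 CPM and Egr1 at 23.2 to 125 CPM; KO was not tested against MWT, and both comparisons share the Ctrl embryos.

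In Sox2 MWT early ICMs, whose labels hold no such conflict and include the inhibitor, 2 of 9 genes were called, against 2.58% of all genes. MWT and Ctrl embryos had different mothers, and the labels give no litter or culture. Maternal genotype and collection therefore cannot be told apart. Relative to depth, Pou5f1 was 2.02 times its Ctrl level in these MWT embryos, without overlap, and Sox2 was 1.02 times its Ctrl level. Spry4 lay at 22.0 to 92.2 CPM (median 55.1) against 4.72 to 16.6 CPM (median 8.48) in Ctrl, without overlap, a log2 fold change of 2.54 ± 0.48 (adjusted p = 0.000134). Dusp4 lay at 2.47 to 60.9 CPM (median 16.7) against 1.94 to 7.08 CPM, a log2 fold change of 2.52 ± 0.60 (adjusted p = 0.00382). Etv4 was detected in 6 of 7 of these embryos, with 9 UMIs, and in 2 of 8 Ctrl embryos, with 3 UMIs. Fos stood at -1.26 ± 0.42 (adjusted p = 0.0532) and was called by DESeq2 (-1.27, adjusted p = 0.0444). The median over the 9 genes was -0.31, against -0.0201. Of 39 other ERK-responsive genes 4 were called higher and 1 lower, and summed primitive endoderm markers were 1250 to 1780 CPM against 426 to 1290 CPM in Ctrl, whose part in the result was not tested.

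Across the 12 Ctrl and KO groups, the genes whose group means (log2 CPM) followed each of the 9 genes most closely were sought among 7478 genes with at least 20 CPM in 1 group, and Pearson's r is given as a description of these 12 points, which share libraries and scaling. Ier3 was followed by Dsp (r = 0.97), which encodes the desmosome protein desmoplakin, Shroom3 (0.94), which shapes epithelial cells, and Ssbp3 (0.93). Dusp4 was followed by Gcnt1 (0.94), Slc5a3 (0.93) and Slc13a2 (0.92). Etv5 was followed by Pck2 (0.98), Dglucy (0.98) and Sh3bp4 (0.98), and Egr1 by Ppp2r1a (0.98), Vta1 (0.98) and Dcakd (0.97). For Spred1 the closest were Rnf11 (0.81), Ptpn13 (0.74) and Ptar1 (0.73), lower than for any of the other 8 genes. The closest to Dusp6 were Prkaca, Tpi1 and Fbln1, to Spry2 Gpi1, Psme2 and Jam2, to Spry4 Csrnp2, Socs2 and Zfp819, and to Fos Ddt, Ube2dnl1 and Naxe, each with r from 0.93 to 0.98.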

How the data were processed

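RNA of 68 Oct4 line and 55 Sox2 line single embryos was sequenced from the 3' end with a UMI in the reverse transcription primer (single-end). The authors used UMI-tools for the UMIs and cutadapt against poly-A, aligned the reads to mm10 with TopHat2 and to spike-in sequences with Bowtie2, counted with featureCounts and corrected for lost molecules with TRUmiCount; versions are not given in the sources used here. The deposited count table holds these UMI counts per gene and embryo, and a second deposited table holds log2 values that the authors made from them with DESeq2's regularised log. UMI counts remove PCR duplicates, and a gene near the detection limit is measured with the error of few molecules.

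Genes with a UMI in a share of 0.5 or more of the embryos of any stage, over lines and genotypes together, were tested. The tests used edgeR 4.0.16 (quasi-likelihood, TMM factors 0.893 to 1.10, R 4.3.3). They were made in 1 fit of 12 Ctrl and KO groups (96 embryos), and for MWT in 1 fit of all 16 groups. Fold changes use TMM-scaled counts, while CPM values use each embryo's total of 525755 to 1344035 UMIs. Adjusted p-values are Benjamini-Hochberg over all genes tested; a call also needs a log2 fold change of at least 1. The script was tested on simulated data. Count intervals are exact, at 95%, and cover counting error only. Groups came from sample titles. Alternatives were DESeq2 1.42.0, limma 3.58.1 on the log2 values, library totals, no detection filter, no fold minimum, counts thinned to 525755 UMIs, all 16 groups in the fit, the label sets, the replicate number as a block and each embryo left out. Embryos were left out for KO against Ctrl, for the stages of Ctrl embryos and for the embryos titled Oct4 MWT early ICM.

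The 10 genes and the other gene lists were chosen with earlier results of these data known. The 10 genes were described in every comparison, and the 3 genes most like each of the 9 tested ones were named. Of the FGF and other ERK-responsive lists, genes called in at least 2 of the 4 ICM KO comparisons were named, at most 6 a list by largest change. The marker and stress lists were described by counts of calls, some with summed levels. The spike-in counts were not used.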

Additional observations from a re-analysis of the deposited data

Results flagged for a closer look

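In 22 of 144 groups of values the highest embryo stood apart from the rest by Dixon's test. The test's chance rate of about 1 in 20, or 7.2 groups, holds only for normally distributed values. The CPM values include sparse counts with a tail of high values, so 22 against 7.2 cannot be read as an excess over chance. The flags only list embryos for a closer look. Embryos that stood apart in several genes came first. Oct4 Ctrl morula 15 was highest for Egr1 (5.60 CPM, next 0.970), Fos (5.60 CPM, next 1.06) and Ier3 (13.4 CPM, next 6.18). Sox2 KO late ICM 2-6 was highest for Spry2 (374 CPM, next 248) and Spry4 (33.1 CPM, next 15).

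The phosphatase genes stood apart in Oct4 MWT late ICMs for Dusp4 (7.11 CPM, next 3.35) and Dusp6 (67.9 CPM, next 33.1), and for Dusp6 in an Oct4 KO morula (13.7 CPM, next 4.85) and in the group titled Oct4 MWT early ICM (20.2 CPM, next 6.47). Among the inhibitors, Spry2 in Oct4 Ctrl late ICM 1-4 reached 347 CPM (next 206), Spry4 reached 50.9 CPM in Oct4 Ctrl late ICM 1-9 (next 24.8) and 14 CPM in Oct4 KO late ICM 1-5 (next 3.86), and Spred1 reached 19.3 CPM in Oct4 KO late ICM 2-7 (next 8.39). Etv5 reached 52.0 CPM in Oct4 KO early ICM 10 (next 26.0).

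Among the immediate early genes, Egr1 reached 688 CPM in Sox2 Ctrl late ICM 2-1 (next 399), 517 CPM in Sox2 KO late ICM 1-1 (next 230) and 1.13 CPM, which is 1 UMI, in an Oct4 MWT morula. Fos reached 134 CPM in Oct4 KO late ICM 2-6 (next 64.0) and 39.2 CPM in Sox2 MWT early ICM 2 (next 16.8). Ier3 reached 18.7 CPM in Oct4 Ctrl late ICM 2-9 (next 4.18), 63.1 CPM in Sox2 KO early ICM 10 (next 28.5) and 22.4 CPM in Sox2 Ctrl late ICM 1-4 (next 9.24).

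The KO effect of 3 genes differed between lines or stages by edgeR's test of the difference. For Etv5 the Oct4 effect was lower than the Sox2 effect by -1.55 on the log2 scale in early ICMs and by -2.96 in late ICMs, and within the Oct4 line it changed by -1.77 from morula to early ICM and by -1.83 from early to late ICM. For Spred1 in the Oct4 line the effect changed by 1.78 and then by -1.97. For Dusp6 in the Oct4 line it changed by 1.90 from early to late ICM.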

How the results depend on the processing

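No value of the 10 genes with a call changed direction under any alternative run. Leaving out embryos covered 35 of the 46 called results, those of KO against Ctrl and of the stages of Ctrl embryos. The calls of a difference between KO effects and the calls in MWT embryos were not checked this way. With 1 embryo left out at a time, 536 of 560 values of called results stayed called and 24 did not. Of the values of results without a call, 11 of 925 gained one. Under the other settings 16 of 346 values lost a call and 17 of 868 gained one. The number of the 9 genes called ranged, with 1 embryo left out, from 4 to 5 in Oct4 KO early ICMs, 6 to 7 in Oct4 KO late ICMs, 1 to 3 in Sox2 KO early ICMs and 2 to 4 in Sox2 KO late ICMs. It was 0 throughout in morulae of both KOs, 7 and 6 from morula to early ICM, 3 to 4 and 1 to 2 from early to late ICM in the Oct4 and Sox2 lines, and 0 to 1 for the embryos titled Oct4 MWT early ICM.

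DESeq2 called 1 gene in Sox2 KO early ICMs and 2 in Sox2 KO late ICMs, where Dusp6 was at 1.11 (adjusted p = 0.0684) and Spry4 at -1.47 (adjusted p = 0.0525). limma on the deposited log2 values called 1 gene from early to late ICM in Sox2 Ctrl embryos. Without a fold minimum 2 genes, Etv5 and Spry2, differed between the KO effects of the lines in early ICMs. In Sox2 KO late ICMs Dusp6 was at 1.01 with library totals (adjusted p = 0.0584) and Egr1 at -1.02 with limma (adjusted p = 0.0153). With thinned counts Spry4 was at -1.43 (adjusted p = 0.0557) in Sox2 KO late ICMs and at 1.41 (adjusted p = 0.0352) from early to late ICM in Oct4 Ctrl embryos, and Spred1 at 1.08 (adjusted p = 0.0355) in Sox2 KO early ICMs. The cause of these differences was not tested.

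Same-numbered embryos did not deviate together throughout: over all comparisons their correlations ran from -0.233 to 0.235, and in each comparison with 3 or more shared numbers the lowest was at most 0.031, so the numbers were not taken to pair them. In Sox2 KO late ICMs the correlations were 0.0183 to 0.235 and 3 of 4 numbers correlated best with their own, as did 3 of 4 in Sox2 MWT early ICMs and 2 of 2 in Oct4 MWT morulae and Oct4 KO early ICMs, but 1 of 3 in Oct4 KO morulae, 1 of 4 in Sox2 KO early ICMs and 0 of 5 in the embryos titled Oct4 MWT early ICM. With the replicate block, Dusp4 passed in Sox2 KO late ICMs (1.90, adjusted p = 0.00219) and Spry4 did not (-1.25, adjusted p = 0.111), and no other call of the 10 genes changed. No paired analysis was possible for Oct4 KO late ICMs, Sox2 KO morulae and Oct4 MWT late ICMs because fewer than 2 numbers are shared.

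Over all genes, counts of calls without a fold minimum were 2950 against 1529 in Oct4 KO early ICMs, 4450 against 2544 in late ICMs, and 989 against 459 and 1935 against 977 in the Sox2 line. With limma on the deposited log2 values and the fold minimum kept, the counts were 611, 1236, 207 and 439. At an unadjusted p under 0.05 limma gave 4498, 5758, 2766 and 3778 genes, against 4526, 5702, 2750 and 3712 by edgeR. With library totals the split of calls in Sox2 KO late ICMs was 379 higher and 628 lower, against 469 and 508, and in Oct4 MWT late ICMs 55 and 65, against 38 and 73. Depth limits Etv4 throughout and Egr1 and Fos in morulae.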
